A study of Homo sapiens with 9 samples.

Results

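The genes described here encode the nuclear subunits of the mitochondrial respiratory chain. They were chosen by name and level alone: protein-coding rows named NDUFA, NDUFB, NDUFC, NDUFS or NDUFV with a number (complex I), SDHA to SDHD (complex II), UQCR (complex III), COX4 to COX8 (complex IV) or ATP5 (complex V), with a mean of at least 0.1 FPKM over the 9 libraries. FPKM is the number of fragments scaled by gene length and by the depth of the library, here with median-of-ratios scaling rather than by mapped fragments alone. That mean was the measured value used, and no difference between groups is part of the rule. The rule was set with earlier results of these data known. Of 90 genes with these names among the 58735 rows of the table, 85 were members: 38 of complex I, 4 of complex II, 9 of complex III, 15 of complex IV and 19 of complex V. COX4I2 (mean 0.179 FPKM) and COX8C (0.181 FPKM) lay just inside the limit, and ATP5MGL (0.0173 FPKM) and ATP5MF-PTCD1 (0.0129 FPKM) just outside it. COX6A2, COX7B2 and NDUFC2-KCTD14 were listed at 0 in every library.

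The respiratory chain sits in the inner mitochondrial membrane. Complexes I and II pass electrons from NADH and succinate to ubiquinone, complex III passes them to cytochrome c and complex IV to oxygen, and complexes I, III and IV pump protons whose return through complex V drives ATP synthesis. Apart from complex II, each complex joins subunits made in the mitochondrion with subunits imported from the cytosol, and several nuclear subunits have alternative isoforms whose use depends on tissue or oxygen.

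RNA was sequenced from HCT116, an established human colorectal carcinoma line, in 3 groups of 3 libraries whose genotypes are labelled A20-WT, A20-KO and A20-OE. A20 is the ubiquitin-editing protein encoded by TNFAIP3. The study made A20-KO cells with a guide RNA in the LentiCRISPR v2 vector followed by puromycin, and describes the third group as A20-KO cells to which A20 was returned. The labels do not state that these are separate cultures, and the sources do not say whether the edited cells are 1 clone, so p-values measure the spread between these libraries, which may be technical. The libraries held 23406222 to 24963691 reads, as recovered from FPKM and gene length. The targeted gene, TNFAIP3, measured 0.869, 0.800 and 0.736 FPKM in A20-WT, 1.93, 2.16 and 1.04 FPKM in A20-KO and 58.7, 66.5 and 56.5 FPKM in A20-OE. The libraries labelled A20-KO thus held more of this mRNA than A20-WT (log2 fold change 0.95, adjusted p = 0.0182, limma). No loss of transcript was seen, but mRNA does not show the level of the protein. The study presents a check of A20 in its knockout and rescue cells, which was not examined here. Below, A20-KO stands for the libraries with that label. Of the epithelial markers EPCAM, CDH1, KRT8, KRT18, KRT19 and CDX1, all but CDX1 were expressed. Of 8 markers of other cells, PTPRC, CD3E, CD68, COL1A2, PECAM1 and ALB had group means of at most 0.12 FPKM, whereas COL1A1 rose from 5.32 ± 0.668 FPKM in A20-WT to 13.3 ± 1.41 FPKM in A20-KO and 11.7 ± 0.653 FPKM in A20-OE, and DES from 0.911 ± 0.301 FPKM to 6.13 ± 0.791 FPKM and 5.61 ± 0.514 FPKM (mean ± SD, n = 3 each, adjusted p from 6.15e-05 to 0.000263 against A20-WT, limma). The part of these markers in the differences below was not tested. In bulk RNA, fewer cells of a type and less RNA per cell cannot be told apart.

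Most members were abundant. The median of their mean levels was 21.0 FPKM, 60 of 85 were above 10 FPKM, 43 were above the 90th percentile of the genes tested, and 76 had at least 100 reads in every library. On this per-length scale ATP5F1B, the catalytic beta subunit of ATP synthase, was the highest at 359 FPKM, followed by NDUFS5, a small accessory subunit of complex I, at 208 FPKM and COX8A, the ubiquitous isoform of a small complex IV subunit, at 139.5 FPKM. The lengths in the table are unions of all annotated exons. They had a median of 2475 bases against 1078 for the principal transcripts, and for 37 members the union was over 2 times the principal transcript, so that FPKM understates such genes. Together the members took 0.757% ± 0.0467 (SD, n = 3) of all reads in A20-WT, 0.757% ± 0.0605 (SD, n = 3) in A20-KO and 0.626% ± 0.0374 (SD, n = 3) in A20-OE. All 3 A20-OE libraries lay below all the others. Reads of mitochondrial genes, which share the same total, were 8.79% ± 1.30 (SD, n = 3) in A20-WT, 10.4% ± 1.36 (SD, n = 3) in A20-KO and 12.7% ± 1.08 (SD, n = 3) in A20-OE. Of the reads outside mitochondrial genes, members took 0.829%, 0.846% and 0.718% on average in the same order.

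Each comparison asked which subunit genes differed when A20 was targeted or supplied. A gene passed at a Benjamini-Hochberg adjusted p under 0.05 over all 21636 genes tested, from limma on log2(FPKM + 0.1), and fold changes below are on that log2 scale, which understates the change of low genes. In A20-KO against A20-WT, 5 members rose and 5 fell, where 11.3% of all genes tested rose and 11.0% fell. With a change of over 2-fold besides, no member passed and none did at an unadjusted p under 0.05 or by limma-voom, against 6.99% of all genes by limma. The groups did not overlap for 20 members (12 higher and 8 lower in A20-KO), against 38.1% of all genes. In A20-OE against A20-KO, 7 members fell, against 4.54% of all genes, and 11 fell by limma-voom. The limma-voom shares of all genes are not given here. The members that rose by limma numbered 0, against 4.43% of all genes, with 3 at an unadjusted p under 0.05 (ATP5S, COX6B2 and NDUFV2) and 1, ATP5S, by limma-voom. The groups did not overlap for 31 members, 5 higher and 26 lower in A20-OE, against 35.4% of all genes. No member passed with over 2-fold there, by either tool or at an unadjusted p under 0.05, against 2.39% of all genes by limma. In A20-OE against A20-WT, 5 members rose and 14 fell, against 15.7% and 15.4% of all genes. Only COX7A1 passed with over 2-fold by limma (limma-voom: 2 members, with COX4I2), against 11.9% of all genes, and 35 members had groups that did not overlap, 13 higher and 22 lower, against 45.3%. The shares that passed were below the background or near it, except among the falls from A20-KO to A20-OE, where 8.24% of members passed. The comparisons share groups, so their counts are not independent of each other.

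**Figure D1:**
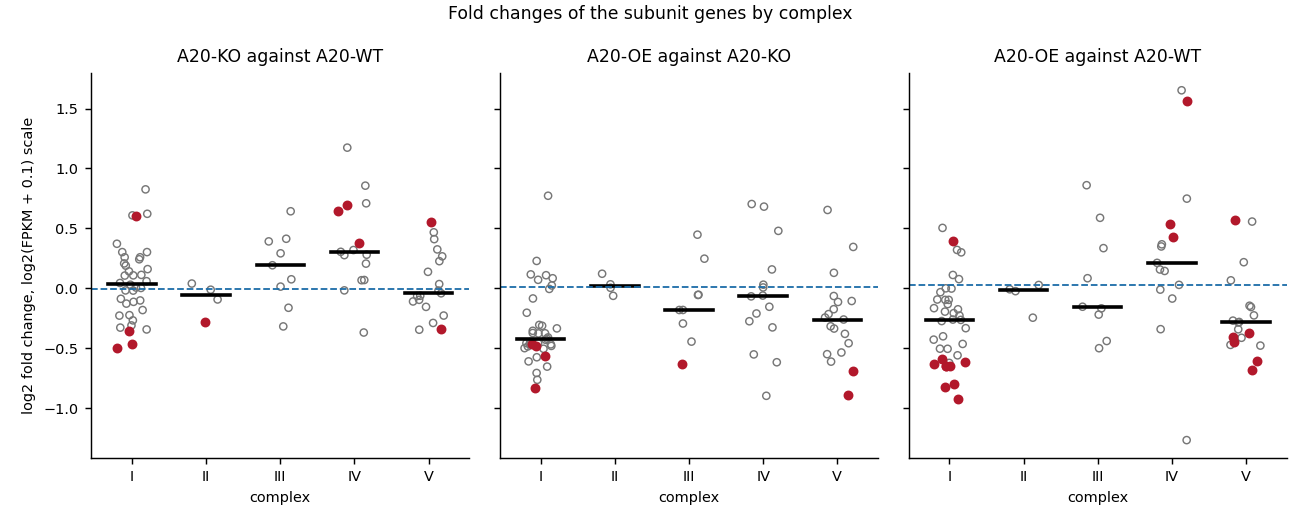
Log2 fold change of each of the 85 subunit genes on the log2(FPKM + 0.1) scale, by complex, in the comparisons A20-KO against A20-WT, A20-OE against A20-KO and A20-OE against A20-WT. Red filled points passed an adjusted p under 0.05, grey open points did not, black bars are the medians of each complex and the dashed line is the median of all genes tested. In A20-OE against A20-KO the complex I median lay at -0.43, with 31 of 38 genes below 0.

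The complexes differed in their medians. From A20-KO to A20-OE the median log2 fold change over all members was -0.31, with 64 of 85 below 0, beside 0.01 over all genes tested. It was -0.43 for complex I (31 of 38 below 0), -0.26 for complex V (16 of 19), -0.18 for complex III (7 of 9), -0.07 for complex IV (9 of 15) and 0.02 for complex II (1 of 4). From A20-WT to A20-OE the medians were -0.26 for complex I, -0.29 for complex V and -0.15 for complex III, against 0.21 for complex IV, where 11 of 15 genes lay above 0, and -0.02 for complex II, beside 0.03 for all genes. From A20-WT to A20-KO, complex IV had a median of 0.30 with 13 of 15 above 0, complex III 0.19, complex I 0.04, complex V -0.04 and complex II -0.05, beside -0.01 for all genes. With any single library left out, the complex IV median in that comparison stayed between 0.18 and 0.40. Without A20-WT replicate 1 and A20-KO replicate 3 together it was -0.06. Without the same 2 libraries the medians were -0.16 for complex I and -0.08 for complex III. This pair was chosen after seeing the data, as a low A20-WT and a high A20-KO library, so leaving it out lowers such medians.

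The sums of FPKM over the genes of a complex show the single libraries. The complex I sum was 910.4, 1023 and 1133 FPKM in the A20-WT replicates 1 to 3, 956, 918 and 1215 FPKM in A20-KO and 778, 681 and 880.3 FPKM in A20-OE. Each A20-OE library was below each A20-WT and A20-KO library. The complex V sum was 1021, 997 and 1098 FPKM in A20-WT, 925, 875 and 1067 FPKM in A20-KO and 782, 708 and 848 FPKM in A20-OE, again with A20-OE below all the others. The complex II sum stayed between 68.0 and 80.9 FPKM in all libraries, with overlapping groups.

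**Figure D2:**
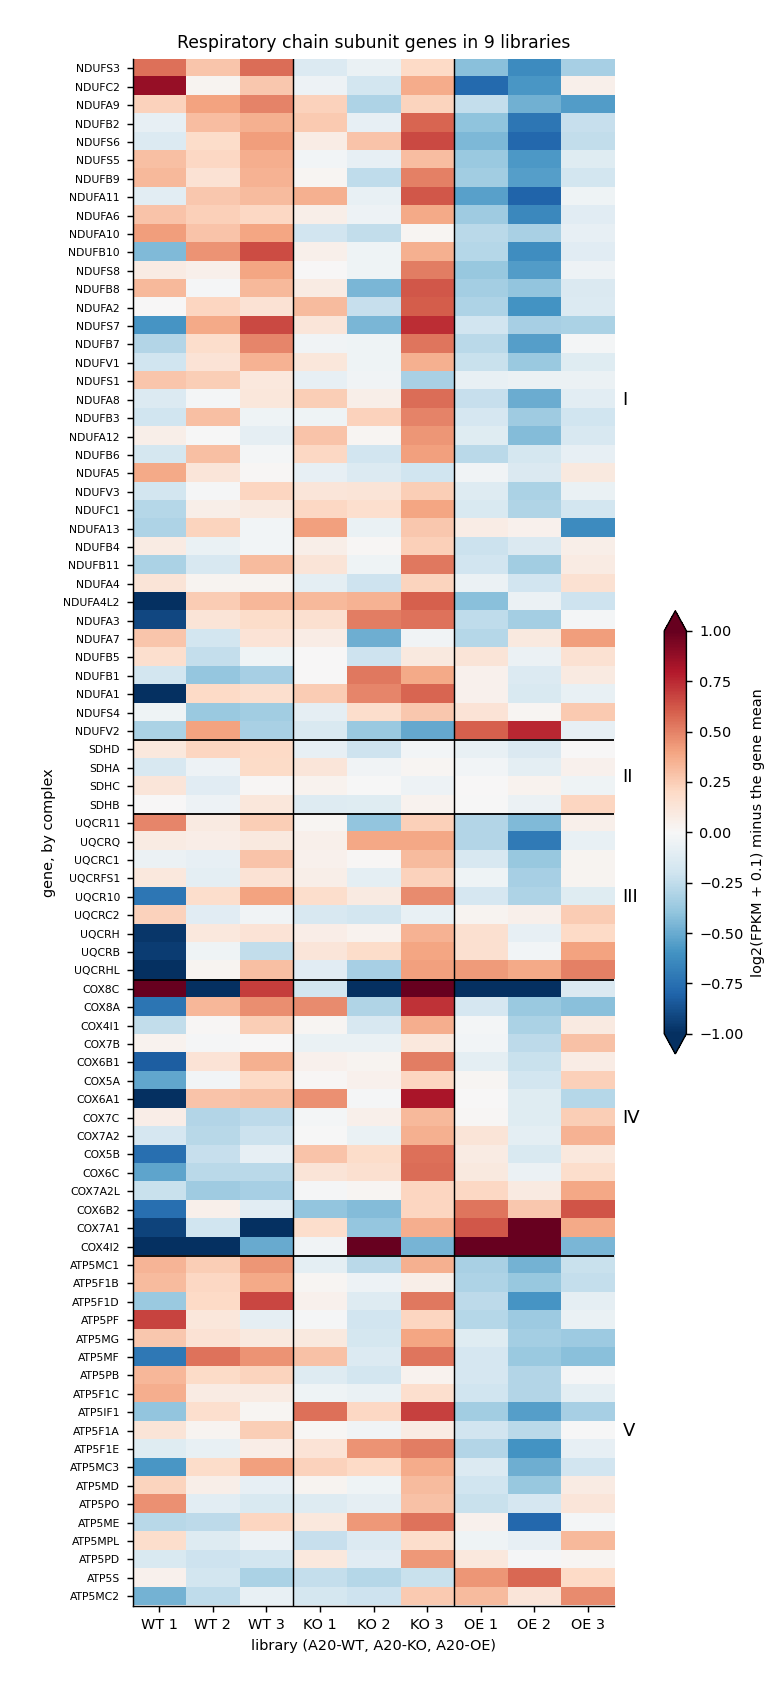
Level of 84 of the 85 subunit genes (vertical, ordered within complexes I to V by its fold change from A20-WT to A20-OE) in the 9 libraries (horizontal), as log2(FPKM + 0.1) minus the mean of the gene, with red above and blue below that mean and colours limited at 1 and -1. A20-KO replicate 3 was the highest library for 43 of the 85 genes and A20-OE replicate 2 the lowest for 36.

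Single libraries carried part of this. A20-KO replicate 3 was the highest of the 9 libraries for 43 members (50.6%, against 15.8% of all genes tested), and A20-OE replicate 2 was the lowest for 36 (42.4%, against 12%). A20-WT replicate 1 was the lowest for 21 members, or 24.7%, near the 25.3% of all genes tested. It was far below the other A20-WT libraries for several small subunits, for example NDUFA1, a complex I accessory subunit, at 10.2, 33.4 and 32.7 FPKM in the A20-WT replicates, and COX6A1, a complex IV subunit, at 10.3, 34.7 and 35 FPKM. Without A20-KO replicate 3 no member passed as lower in A20-OE than in A20-KO by limma, and the same held without A20-OE replicate 1 or 2. The complex I median of that comparison was -0.30 without A20-KO replicate 3 and -0.34 without A20-OE replicate 2, so its direction did not depend on either library.

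Promoter sequences are shown because many of these genes are known targets of the nuclear respiratory factors. RefSeq promoters (GRCh38.p14, 250 bases before to 50 after the start) were taken at all listed starts of a gene. They were matched by Ensembl identifier, or else by symbol, for 67 of the 85 members and searched on both strands. The NRF1 motif GCGCNTGCG was in 25 of them (37.3%, against 12.5% of 15843 protein-coding genes), the ETS core CCGGAAG bound by GABP in 21 (31.3% against 16.5%) and the YY1 motif AAGATGGC in 12 (17.9% against 4.66%). The cyclic AMP response element TGACGTCA was in 5 (7.46% against 3%), the CCAAT box in 24 (35.8% against 42.1%) and the hypoxia response core ACGTG in 17 (25.4% against 28.5%). No motif of these contains another, although matches can overlap. An NRF1 match lay in 4 of the 10 promoters of members that fell from A20-WT to A20-OE (40.0%), in 4 of the 7 of members that fell from A20-KO to A20-OE (57.1%) and in 16 of the 42 of members that passed no comparison (38.1%). The cyclic AMP response element lay in 3, 0 and 2 of the same promoters. These counts are small and were not tested. The sites below are a selection from genes that passed a comparison and from SDHA. Matches in SDHD and NDUFS1 and a further ETS core in NDUFS3, for example, are not shown. Each site is 30 bases with the match in capitals, 5′ to 3′ on the strand of the gene.
ATP5MC1 cyclic AMP response element, chr17:48892719-48892748, plus strand: tggggaatcgaTGACGTCAaccaatgggga
NDUFA10 cyclic AMP response element, chr2:240025372-240025401, minus strand: caccccggccgTGACGTCAcggcagcgcgc
NDUFS3 ETS core, chr11:47578960-47578989, plus strand: ccggaacctccgCTTCCGGctccacgtccg
NDUFA9 NRF1 motif, chr12:4649023-4649052, plus strand: tttcttggttaGCGCTTGCGcagacaggcg
NDUFS6 NRF1 motif, chr5:1801350-1801379, plus strand: ccagaagccgtGCGCATGCGttagcgctaa
NDUFA12 NRF1 motif, chr12:95003794-95003823, minus strand: acctagctctgCGCACGCGCagagccacca
UQCRQ ETS core, chr5:132866576-132866605, plus strand: aaatggtatctcCCGGAAGttacctcacga
COX5B ETS core, chr2:97646013-97646042, plus strand: agaagcccgcccCCGGAAGtccctcctgtc
SDHA NRF1 motif, chr5:218144-218173, plus strand: ggtccgctttgCGCAGGCGCggcgccccca
SDHA NRF1 motif, chr5:218193-218222, plus strand: gtggcatggtgCGCAGGCGCgatgtccccc
SDHA NRF1 motif, chr5:218242-218271, plus strand: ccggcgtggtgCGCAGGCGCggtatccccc
SDHA NRF1 motif, chr5:218290-218319, plus strand: cccggtgtggtgCGCAGGCGCagtctgcgc
The 4 SDHA matches carry the same 9 letters and start 165, 116, 67 and 18 bases before the RefSeq start. RefSeq starts can differ from the deposited ones. In the deposited coordinates SDHA begins at chr5:218241, so its sites from 218242 on lie within the gene. A match is a description of the letters and says nothing of binding in these cells.

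In complex I, the largest set, 9 of 38 genes fell and 1 rose from A20-WT to A20-OE, where 15.4% of all genes tested fell and 15.7% rose. From A20-WT to A20-KO 3 fell and 1 rose, against 11.0% and 11.3% of all genes. NDUFS3 (ENSG00000213619, chr11:47565336-47584562, GRCh38), a core subunit of the arm that feeds electrons to ubiquinone, was at 20.5, 16.9 and 20.6 FPKM in A20-WT, 12.6, 13.3 and 16.1 FPKM in A20-KO and 10.4, 8.97 and 11.1 FPKM in A20-OE. The groups did not overlap in any of the comparisons, with the levels in the order A20-WT, A20-KO, A20-OE. It fell by 0.92 on the log2 scale from A20-WT to A20-OE (standard error 0.13, adjusted p = 0.000874, limma) and by 0.46 from A20-WT to A20-KO (standard error 0.13, adjusted p = 0.0332, limma). The first call held under all 24 alternatives, and the second was lost without any 1 of 5 libraries, A20-WT replicate 1 or 3, A20-KO replicate 1 or 2 or A20-OE replicate 1 (adjusted p up to 0.116, limma). PTPMT1 shares 19.6% of the NDUFS3 exonic bases on the same strand, so reads there cannot be assigned.

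NDUFA10 (ENSG00000130414, chr2:239892450-240025402, GRCh38), an accessory subunit of the membrane arm, was at 12.5, 11.4 and 12.3 FPKM in A20-WT, 8.17, 7.84 and 9.49 FPKM in A20-KO and 7.75, 7.44 and 8.81 FPKM in A20-OE. Both altered groups lay below A20-WT and overlapped each other. It fell by 0.50 from A20-WT to A20-KO and by 0.59 to A20-OE on the log2 scale (adjusted p = 0.0104 and 0.00311, limma), while A20-OE against A20-KO gave -0.09 (95% interval -0.33 to 0.16). The fall to A20-OE was called under all 24 alternatives and the fall to A20-KO under 23, with an adjusted p of 0.0861 (limma) after a correction for gene length. NDUFA9 (ENSG00000139180, chr12:4649095-4694317, GRCh38), an accessory subunit near the ubiquinone site, was at 1.19, 1.35 and 1.45 FPKM in A20-WT, 1.19, 0.791 and 1.18 FPKM in A20-KO and 0.836, 0.690 and 0.649 FPKM in A20-OE. The A20-OE libraries were all below A20-WT and overlapped A20-KO, and the fall from A20-WT to A20-OE was 0.80 (adjusted p = 0.0133, limma), called under all 24 alternatives, although the fall was 0.435 with 1 in place of 0.1 added before the log. Of the NDUFA9 exonic bases, 10.6% lie in other genes on the same strand. Among the core subunits, NDUFS1, which holds iron-sulphur clusters of the NADH arm, fell from 8.02, 7.85 and 7.12 FPKM in A20-WT to 6.24, 6.44 and 5.25 FPKM in A20-KO, by 0.36 (adjusted p = 0.0374, limma). That call was lost under 15 of the 24 alternatives, 7 of them single libraries left out, and the change was -0.13 with a correction for GC content (adjusted p = 0.239) and -0.20 with one for gene length (adjusted p = 0.128, limma). Of the 7 core genes, NDUFS3 and NDUFS1 were those that passed in A20-KO against A20-WT, where 11.0% of all genes tested fell. In A20-OE against A20-WT, where 15.4% fell, NDUFS3 alone passed. NDUFV2, a core subunit of the NADH arm, was higher in A20-OE than in A20-KO without passing (adjusted p = 0.12, limma). It was at 0.832, 1.43 and 0.826 FPKM in A20-WT, 0.941, 0.795 and 0.712 FPKM in A20-KO and 1.66, 1.86 and 0.995 FPKM in A20-OE. A20-WT overlapped both other groups, and 28.4% of the NDUFV2 exonic bases lie in another gene on the same strand.

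From A20-KO to A20-OE, 4 of the 31 accessory genes of complex I fell, where 4.54% of all genes tested fell. NDUFS6, a zinc-binding subunit of the matrix arm, was at 23.3, 29.3 and 34.3 FPKM in A20-WT, 27.2, 31.5 and 40.7 FPKM in A20-KO and 18.8, 14.9 and 21.6 FPKM in A20-OE. All A20-OE libraries were the lowest, and A20-WT and A20-KO overlapped. NDUFS6 fell by 0.84 on the log2 scale against A20-KO (adjusted p = 0.0355) and by 0.65 against A20-WT (adjusted p = 0.035, limma), the second call lost without any of 5 single libraries (adjusted p up to 0.127). NDUFA8, NDUFA12 and NDUFC1, further accessory subunits, fell by 0.57, 0.49 and 0.47 from A20-KO to A20-OE (adjusted p = 0.0497, 0.0498 and 0.045, limma), and 18.5% of the exonic bases of NDUFC1, described after its values were seen, are shared with MGARP. NDUFS6, NDUFA8, NDUFA12 and NDUFC1 each lost the call in this comparison without any of 7 single libraries, the A20-KO replicates 1 and 3 and the A20-OE replicates among them (adjusted p up to 0.174, limma). The other way, NDUFB1, an accessory subunit of the membrane arm, rose from 5.09, 4.42 and 4.60 FPKM in A20-WT to 5.84, 8.43 and 7.56 FPKM in A20-KO, a log2 fold change of 0.61 (adjusted p = 0.0162, limma), and stood at 5.97, 5.29 and 6.17 FPKM in A20-OE. All NDUFB1 values in A20-KO and A20-OE were above A20-WT. Its call was lost without A20-WT replicate 2, A20-KO replicate 2 or A20-KO replicate 3 (adjusted p from 0.0519 to 0.0585, limma). NDUFS4, an accessory subunit of the matrix arm, rose from A20-WT to A20-OE by 0.39 (adjusted p = 0.0459, limma), from 28.9, 23.1 and 23.4 FPKM to 32.8, 30.3 and 35.9 FPKM, and lost the call without any of 6 single libraries (adjusted p up to 0.143) and with a correction for gene length, where the change was 0.24 (adjusted p = 0.198, limma).

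Of the remaining falls from A20-WT to A20-OE, NDUFC2, an accessory membrane-arm subunit, had the largest change at -0.83 (adjusted p = 0.048, limma), with 7.17, 3.94 and 4.69 FPKM in A20-WT and 2.21, 2.55 and 4.02 FPKM in A20-OE. Its groups touched, since A20-OE replicate 3 exceeded A20-WT replicate 2, and the call was lost without any of 7 single libraries (adjusted p up to 0.167). NDUFS5, named after its values were seen as the most abundant complex I gene, was at 251, 235 and 261 FPKM in A20-WT, 199, 192 and 252 FPKM in A20-KO and 157, 137 and 187 FPKM in A20-OE. Its A20-OE libraries lay below both other groups, and it fell by 0.65 from A20-WT (adjusted p = 0.00961, limma), a call kept without any 1 of the 9 libraries. NDUFA4 associates with complex IV, and it and its paralogue NDUFA4L2 are counted in complex I here by name alone. NDUFA4 gave -0.09 in A20-OE against A20-WT (95% interval -0.39 to 0.20). NDUFA4L2, known as hypoxia-induced, stayed at 0.0861 to 0.535 FPKM over the 9 libraries.

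NDUFA6, NDUFB2 and NDUFB9, accessory subunits chosen after their values were seen, also fell from A20-WT to A20-OE, by 0.61, 0.65 and 0.63 (adjusted p = 0.0138, 0.0351 and 0.0269, limma). The NDUFA6 call was kept without any 1 library, whereas those of NDUFB2 and NDUFB9 were lost without any of 5 and of 4 single libraries (adjusted p up to 0.126 and 0.101). NDUFS8, a core subunit with iron-sulphur clusters, was at 22.8, 22.3 and 28.4 FPKM in A20-WT, 21.6, 20.9 and 30.8 FPKM in A20-KO and 16.6, 14.6 and 20.8 FPKM in A20-OE. Its A20-OE libraries lay below both other groups without passing (adjusted p = 0.138 against A20-KO and 0.0654 against A20-WT, limma). NDUFV1, the core subunit that binds NADH, was at 20.4, 25.7 and 29.7 FPKM, 25.3, 22.6 and 29.9 FPKM and 20, 18.0 and 21.5 FPKM in the order A20-WT, A20-KO, A20-OE, and its A20-OE libraries lay below A20-KO (adjusted p = 0.167, limma). NDUFS7, the core subunit with the last iron-sulphur cluster of the chain, gave -0.43 from A20-WT to A20-OE with a wide 95% interval of -1.23 to 0.37. NDUFB10 and NDUFB7, abundant accessory subunits of the membrane arm, gave -0.56 and -0.40 there (adjusted p = 0.148 and 0.234, limma). NDUFB5, a further membrane-arm subunit, and NDUFA5, of the matrix arm, gave 0.11 and 0.12 in A20-OE against A20-KO, 2 of the 7 complex I genes above 0 in that comparison. NDUFA13, also known as the cell death regulator GRIM-19, gave -0.13 from A20-WT to A20-OE (95% interval -0.65 to 0.38).

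Complex II had 1 gene that passed a comparison, the anchor SDHD, which fell from A20-WT to A20-KO, where 11.0% of all genes tested fell. SDHA, the flavoprotein, was at 15.3, 16.5 and 19.5 FPKM in A20-WT, 18.5, 16.7 and 17.3 FPKM in A20-KO and 16.7, 15.9 and 17.6 FPKM in A20-OE. SDHB, the iron-sulphur subunit, was at 33.5, 32.3 and 36.3 FPKM, 30.6, 30.8 and 34.4 FPKM and 33.4, 32.1 and 38.8 FPKM in the same order, and the groups of both genes overlapped. SDHC, a membrane anchor, was at 7.59, 6.45 and 7.02 FPKM, 7.15, 6.97 and 6.72 FPKM and 7.0, 7.15 and 6.75 FPKM. The largest absolute log2 fold change of these 3 genes was 0.12 (SDHB, A20-OE against A20-KO, 95% interval -0.11 to 0.35). SDHD was at 16.9, 18.2 and 18.0 FPKM in A20-WT, 14.8, 13.6 and 15.4 FPKM in A20-KO and 14.9, 14.2 and 15.7 FPKM in A20-OE. A20-WT lay above the other groups, which overlapped. SDHD fell by 0.28 from A20-WT to A20-KO (adjusted p = 0.048, limma), a call lost without any of 7 single libraries (adjusted p up to 0.130) and under 13 of the 24 alternatives. With a correction for the GC content of transcripts the change was -0.02 (adjusted p = 0.926, limma). In the annotation, 11.2% of the SDHD exonic bases are shared with another gene on the same strand.

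In complex III, 1 of 9 genes passed a comparison, a fall from A20-KO to A20-OE, where 4.54% of all genes tested fell. UQCRQ, a small subunit that touches cytochrome b, was at 63.7, 63.3 and 64.5 FPKM in A20-WT, 62.3, 78.8 and 79.0 FPKM in A20-KO and 49.3, 36.8 and 57.3 FPKM in A20-OE. Its A20-OE libraries were below both other groups. It fell by 0.63 on the log2 scale from A20-KO to A20-OE (standard error 0.16, adjusted p = 0.045, limma), and the call was lost without any of 7 single libraries (adjusted p up to 0.130). GDF9 covers 20.8% of its exonic bases on the opposite strand, and whether counting used strand is not stated. UQCRC2, a core protein of the matrix side, gave 0.25 in that comparison (adjusted p = 0.203, limma). UQCRB, another small subunit near cytochrome b, was at 9.21, 17.3 and 15 FPKM in A20-WT, 19.4, 20.2 and 23.5 FPKM in A20-KO and 20, 17.5 and 23.6 FPKM in A20-OE. Its A20-OE libraries lay above A20-WT without passing (adjusted p = 0.0713, limma). UQCRFS1, the Rieske iron-sulphur protein, and UQCRC1, a core protein, had overlapping groups with -0.17 and -0.22 from A20-WT to A20-OE (95% intervals -0.46 to 0.12 and -0.55 to 0.11). UQCRH, the acidic hinge protein for cytochrome c, was at 55.8, 118 and 121 FPKM, 114, 112 and 139.8 FPKM and 122, 104 and 126 FPKM, where A20-WT replicate 1 was less than any other library. UQCRHL is a near-identical copy of UQCRH at 0.942 to 4.39 FPKM, and reads of these genes could be exchanged.

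In complex IV, 3 genes rose in A20-KO and 3 in A20-OE, each against A20-WT, where 11.3% and 15.7% of all genes rose, and the genes that fell by limma numbered 0 in both. COX6C (ENSG00000164919, chr8:99873200-99894062, GRCh38), a small structural subunit, was at 25.3, 30.3 and 30.4 FPKM in A20-WT, 40.1, 41.1 and 54.1 FPKM in A20-KO and 39.3, 35.2 and 41.5 FPKM in A20-OE. Both altered groups were above A20-WT and overlapped each other. It rose by 0.64 in A20-KO (standard error 0.14, adjusted p = 0.0104, limma), a call that held under all 24 alternatives (0.42 without A20-WT replicate 1 and A20-KO replicate 3), and by 0.43 in A20-OE (adjusted p = 0.0399, limma), a call lost without any of 7 single libraries (adjusted p up to 0.122). COX7A2L (ENSG00000115944, chr2:42333546-42425088, GRCh38), which joins complexes III and IV in supercomplexes, was at 10.1, 9.25 and 9.40 FPKM in A20-WT, 11.7, 12 and 13.7 FPKM in A20-KO and 13.7, 12.6 and 15.5 FPKM in A20-OE. All A20-KO and A20-OE libraries were above A20-WT. Its rise was 0.53 in A20-OE (adjusted p = 0.00515, limma), kept under all 24 alternatives, and 0.38 in A20-KO (adjusted p = 0.0342, limma), lost without any of 6 single libraries (adjusted p up to 0.101).

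COX5B, a zinc-binding subunit on the matrix side, was at 35.4, 50.8 and 56.4 FPKM in A20-WT, 72.7, 67.7 and 87.3 FPKM in A20-KO and 63.1, 53.7 and 64.1 FPKM in A20-OE. All A20-KO libraries were above A20-WT. It rose by 0.69 in A20-KO (adjusted p = 0.0226, limma), and the adjusted p was 0.0604 without A20-KO replicate 1 and 0.0797 without A20-KO replicate 3. Without A20-WT replicate 1 and A20-KO replicate 3 together the rise was 0.39 (adjusted p = 0.0578, limma). COX7A1, the isoform of heart and muscle, was near the limit of the table at 0.0801, 0.199 and 0.0398 FPKM in A20-WT, 0.286, 0.162 and 0.341 FPKM in A20-KO and 0.425, 0.721 and 0.346 FPKM in A20-OE. These values stand on 1 to 18 reads, with 8 each in A20-KO replicate 3 and A20-OE replicate 3. Its A20-OE libraries were above both other groups, and it rose by 1.56 from A20-WT (adjusted p = 0.015, limma), with an adjusted p of 0.0566 without A20-OE replicate 2. The size rests on the constant added before the log: it was 0.43 with 1 added and 2.31 with 0.01 added (adjusted p = 0.0186 for the former, limma). By limma on log2 FPKM the 2-fold call thus held only with the smaller constants, and limma-voom on reads made it too. The common isoform COX7A2 was at 44.9, 41.6 and 43.4 FPKM in A20-WT and 55.3, 47.2 and 64.3 FPKM in A20-OE (adjusted p = 0.0957, limma), so COX7A1 stayed a small share of the pair.

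The other isoform pairs of complex IV were led by the common form in every library. COX4I1, the common form of the subunit that regulates the complex, was at 61.5 to 98.5 FPKM over the 9 libraries, against 0 to 0.465 FPKM for the hypoxia-linked COX4I2, whose change from A20-WT to A20-OE had an adjusted p of 0.0682 (limma). COX6B1, which helps complex IV form dimers, was at 56.8 to 143 FPKM, against 0.433, 0.829 and 0.734 FPKM in A20-WT, 0.582, 0.565 and 0.945 FPKM in A20-KO and 1.20, 0.982 and 1.29 FPKM in A20-OE for the testis form COX6B2. COX6B2 had A20-OE libraries above both other groups without passing (adjusted p = 0.153 and 0.0632, limma), and 30.9% of its exonic bases lie in another gene on the same strand. COX5A, on the matrix side of the complex, gave 0.14 from A20-WT to A20-OE (95% interval -0.27 to 0.56), and COX7C, a small membrane subunit, gave 0.21 (95% interval -0.12 to 0.54). COX7B, a small subunit, was even at 16.4 to 24.1 FPKM. COX8A spread from 79.8 to 219 FPKM with overlapping groups and shares 34.5% of its exonic bases with a same-strand gene, and COX8C did not exceed 0.68 FPKM.

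Complex V, the ATP synthase, had falls in its catalytic head and opposite changes among its c-subunit genes. From A20-WT to A20-OE 5 of its 19 genes fell and 1 rose, beside 15.4% and 15.7% of all genes. ATP5F1B (ENSG00000110955, chr12:56638175-56646068, GRCh38) was at 440.4, 407 and 459 FPKM in A20-WT, 358, 341 and 368 FPKM in A20-KO and 285, 272 and 299 FPKM in A20-OE. The groups did not overlap in any of the comparisons. It fell by 0.61 on the log2 scale from A20-WT to A20-OE (standard error 0.11, adjusted p = 0.00247, limma) under all 24 alternatives, and neither step alone passed (adjusted p = 0.0813 for A20-KO against A20-WT and 0.0984 for A20-OE against A20-KO, limma). The 5 genes of the F1 head, ATP5F1A to ATP5F1E, all had log2 fold changes below 0 in A20-OE against A20-WT, from -0.61 to -0.28, and ATP5F1B and the central-stalk gene ATP5F1C passed, the latter lost without any of 4 single libraries (adjusted p up to 0.106). Their summed level was 655 ± 53.0 FPKM (SD, n = 3) in A20-WT, 568 ± 43.5 FPKM in A20-KO and 450.5 ± 34.1 FPKM in A20-OE, with ATP5F1B as the largest part. ATP5F1E, the epsilon subunit of the central stalk, fell from 18.7, 23.3 and 24.2 FPKM in A20-KO to 13.8, 11.2 and 16.1 FPKM in A20-OE, a change of -0.69 (adjusted p = 0.0254, limma), lost without A20-KO replicate 2 or 3 or A20-OE replicate 1 or 2 (adjusted p up to 0.092). In the peripheral stalk, ATP5PB was at 58.3, 52.9 and 54.2 FPKM in A20-WT, 42.2, 40.7 and 47.6 FPKM in A20-KO and 41.2, 37.7 and 46.0 FPKM in A20-OE. It was lower in both altered groups, by 0.34 in A20-KO and 0.41 in A20-OE (adjusted p = 0.0425 and 0.0155, limma), the second call lost without A20-OE replicate 1 or 2 (adjusted p = 0.0553 and 0.0568) and the first without any of 6 single libraries (adjusted p up to 0.124). With a correction for GC content the change in A20-KO was -0.18 (adjusted p = 0.279, limma). Of the other peripheral-stalk genes, ATP5PF gave -0.47, ATP5PO -0.16 and ATP5PD 0.22 from A20-WT to A20-OE (adjusted p = 0.0963, 0.578 and 0.244, limma), and the ATP5PD libraries of A20-OE lay above A20-WT. ATP5MG, a membrane subunit of the dimer interface, fell by 0.45 in A20-OE against A20-WT (adjusted p = 0.0488, limma), and its call was lost without any of 7 single libraries (adjusted p up to 0.136) and with the GC correction, where the change was -0.29 (adjusted p = 0.264, limma).

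ATP5IF1, the inhibitor that blocks ATP hydrolysis by the synthase, was at 13.2, 19.5 and 17.5 FPKM in A20-WT, 25.4, 20.1 and 27.9 FPKM in A20-KO and 13.6, 11.8 and 13.8 FPKM in A20-OE. A20-KO lay above both other groups. It rose by 0.55 from A20-WT to A20-KO (adjusted p = 0.0449, limma) and fell by 0.89 from A20-KO to A20-OE (adjusted p = 0.016, limma), the largest fall among members that passed there. The rise was lost without any of 7 single libraries (adjusted p up to 0.139) and was 0.29 without A20-WT replicate 1 and A20-KO replicate 3 together (adjusted p = 0.209, limma), and the fall without A20-KO replicate 1 or 3 or A20-OE replicate 1 or 2 (adjusted p from 0.0563 to 0.0771). ATP5IF1 was the only member that passed in opposite directions in these comparisons, which share the A20-KO libraries.

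Mature c subunit, the proton-carrying ring of ATP synthase, is the same protein from ATP5MC1, ATP5MC2 and ATP5MC3. ATP5MC1 (ENSG00000159199, chr17:48892765-48895871, GRCh38) was at 39.5, 37.1 and 42.5 FPKM in A20-WT, 29.2, 25.9 and 40.0 FPKM in A20-KO and 24.9, 22.5 and 26.7 FPKM in A20-OE. ATP5MC2 (ENSG00000135390, chr12:53632726-53677408, GRCh38) was at 19.8, 23.0 and 26.1 FPKM, 24.3, 23.8 and 33.0 FPKM and 34.3, 29.9 and 38.2 FPKM in the same order. From A20-WT to A20-OE these genes did not overlap and moved apart: ATP5MC1 fell by 0.68 (adjusted p = 0.00903, limma), kept under all 24 alternatives, and ATP5MC2 rose by 0.57 (adjusted p = 0.0236, limma), lost without A20-WT replicate 1 or 2 or A20-OE replicate 1 or 3 (adjusted p from 0.063 to 0.0851). Their ratio, ATP5MC2 to ATP5MC1 in FPKM, was 0.502, 0.621 and 0.614 in A20-WT, 0.831, 0.920 and 0.824 in A20-KO and 1.37, 1.33 and 1.43 in A20-OE. No group overlapped another, and A20-OE replicates all had more ATP5MC2 than ATP5MC1. The mean ratio was 1.48 times as high in A20-KO as in A20-WT and 2.38 times in A20-OE. The exact two-sided permutation test gave p = 0.1 in each comparison, the smallest that 3 against 3 libraries allow, and 0.188 after Benjamini-Hochberg adjustment over 30 tests of 10 isoform ratios. This ratio was singled out after its values were seen. ATP5MC3 was at 15.1, 25.8 and 30.2 FPKM, 26.6, 26.2 and 29.5 FPKM and 20.7, 16.2 and 19.9 FPKM and passed no comparison, and the sum of the 3 genes was 86.4 ± 12.2 FPKM, 86.1 ± 14.3 FPKM and 77.8 ± 8.32 FPKM (SD, n = 3) in the order A20-WT, A20-KO, A20-OE, with overlapping groups. The promoter of ATP5MC1 held the cyclic AMP response element shown above, which none of the ATP5MC2 promoters held.

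**Figure D3:**
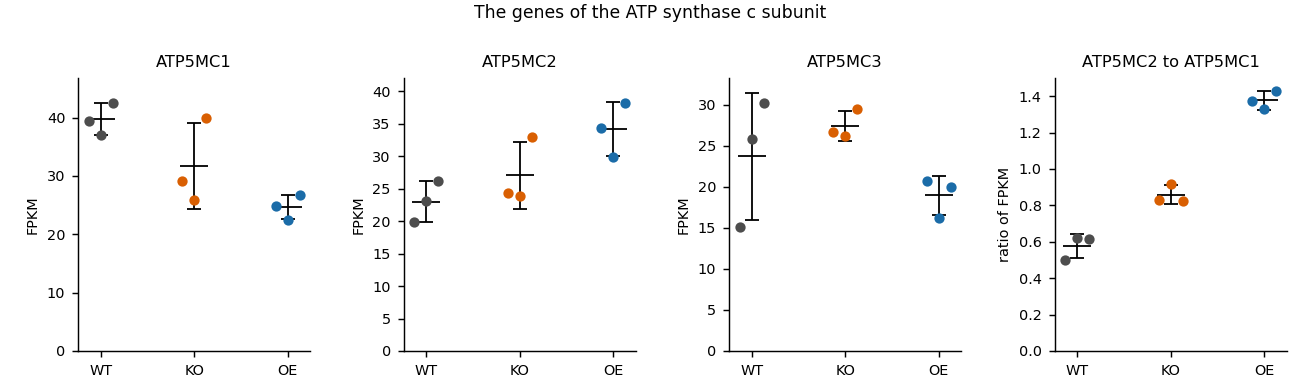
FPKM of ATP5MC1, ATP5MC2 and ATP5MC3 and the ratio of ATP5MC2 to ATP5MC1 (vertical axes from 0) in A20-WT, A20-KO and A20-OE, with points for libraries and the mean and SD of each group of 3 in black. The ratio rises from a mean of 0.579 in A20-WT to 0.859 in A20-KO and 1.38 in A20-OE without overlap.

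Genes of the same machinery outside the membership were described from lists of known function, which were chosen with earlier results of these data known. The nuclear subunits NDUFAB1, CYC1 and cytochrome c itself (CYCS), which the membership rule left out, fell from A20-WT to A20-OE, 3 of 3 where 15.4% of all genes fell, by 0.64, 0.50 and 0.52 (adjusted p = 0.0155, 0.0429 and 0.00211, limma). Of 17 complex I assembly factors, 7 fell and 0 rose by limma in that comparison (15.4% and 15.7% of all genes), with a median of -0.39, the largest being NDUFAF4 at -1.14 (adjusted p = 0.00193) and FOXRED1 at -0.99 (adjusted p = 0.000469, limma). Of 25 complex IV assembly factors, 7 fell and 1 rose beside the same shares of all genes, with COA7 at -0.81 and HIGD1A at -1.0, and COX20 rose by 0.96 (adjusted p = 0.000352, 0.00593 and 0.0148, limma). BCS1L, which inserts the iron-sulphur protein of complex III, fell by 0.91 as 1 of 6 complex III factors, and ATPAF1 and TMEM70, which serve ATP synthase assembly, fell by 0.71 and 0.81 as 2 of 4 (adjusted p = 0.000366, 0.000927 and 0.0014, limma). Of 4 complex II assembly factors, SDHAF4 rose by 0.70 (adjusted p = 0.0137, limma).

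Of 18 genes of the tricarboxylic acid cycle and pyruvate dehydrogenase, 8 fell and 2 rose from A20-WT to A20-OE, where 15.4% and 15.7% of all genes did, with a median of -0.20. DLAT, the E2 subunit of pyruvate dehydrogenase, fell from 23.3 ± 1.32 FPKM in A20-WT to 7.94 ± 0.745 FPKM in A20-KO and 6.50 ± 0.235 FPKM in A20-OE (mean ± SD, n = 3 each, adjusted p = 5.34e-05 and 6.09e-06 against A20-WT, limma). FH, fumarate hydratase, stepped down over the same groups from 33.9 ± 3.46 FPKM to 24.0 ± 1.6 FPKM and 16.5 ± 1.09 FPKM and passed in all the comparisons (adjusted p = 0.00926, 0.0172 and 0.000137 in the order A20-KO against A20-WT, A20-OE against A20-KO and A20-OE against A20-WT, limma). IDH2 and SUCLG2 were the genes that rose. Of 14 regulators of mitochondrial biogenesis, 13 were tested and PPARGC1A was at or near 0. From A20-WT to A20-KO, 5 fell where 11.0% of all genes did: the coactivator PPRC1 by 0.95, the mitochondrial transcription factors TFAM by 0.62 and TFB2M by 0.54, the helicase TWNK by 0.53 and NRF1 by 0.44 (adjusted p = 0.00019, 0.00527, 0.0186, 0.00248 and 0.0271, limma). From A20-WT to A20-OE 5 fell as well, against 15.4% of all genes, with PPRC1 at -0.73 and TFAM at -0.74 (adjusted p = 0.000222 and 0.00121, limma). GABPA, the DNA-binding subunit of GABP, did not pass in A20-OE against A20-WT (0.13, 95% interval -0.38 to 0.64).

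Of the 13 subunits made from the mitochondrial genome, 2 rose from A20-WT to A20-OE, MT-ND5 by 0.70 and MT-CYB by 0.88 (adjusted p = 0.0362 and 0.0311, limma), against 15.7% of all genes. The log2 fold changes of the 13 genes in that comparison had a median of 0.57 and reached from 0.00 (MT-ATP8) upward. From A20-KO to A20-OE, 11 of the 13 lay above 0, with the lowest adjusted p at 0.124 (MT-ND5, limma), and MT-ATP8 (-0.46) and MT-ND3 (-0.07) lay below 0. The summed level of the 13 genes was 97186, 82370 and 74260 FPKM in A20-WT, 83689, 91398 and 113981 FPKM in A20-KO and 119612, 114388 and 144439 FPKM in A20-OE. The A20-OE libraries were all above the others.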

How the data were processed

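RNA-seq of 3 A20-WT, 3 A20-KO and 3 A20-OE libraries of HCT116 was analysed from 1 table of FPKM values that the authors deposited, with gene length and coordinates. Per the labels and the study's methods, poly-A RNA was sequenced as paired-end reads of 150 bases. The submitters' processing notes name HISAT2 2.0.5 and featureCounts 1.5.0-p3. The build is not given in the sources used here, but the coordinates and the lengths of all members equal GENCODE 29 (GRCh38). Strandedness is not stated. The deposited FPKM already carry median-of-ratios scaling, and FPKM times length gave whole reads within 0.05 for all values.

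The 21636 genes that averaged 0.1 FPKM or more were tested by limma 3.58.1 in R 4.3.3 on log2(FPKM + 0.1) over all 3 groups, with a variance trend and Benjamini-Hochberg adjustment. Ratios were tested by exact permutation in scipy 1.17.1. Members and lists were chosen with earlier results of these data known. Genes named were, per complex and comparison, up to 3 with the largest rise and fall among those that passed, all complex II genes, isoform groups, ATP5IF1, any that passed with over 2-fold and the genes next to the level limit. Genes named beyond this rule (the other members with values in the report) were chosen after their values were seen. A single member enters the counts, medians and sums but is not reported here. Alternatives were another pseudocount, filter, scaling, fit, replicate block, limma-voom, length or GC correction and omitted libraries. On simulated A20-OE and A20-KO libraries, limma recovered 88 of 100 genes changed 2-fold and 16 of 100 changed 1.41-fold among 21644, and limma-voom 95 and 56. False calls numbered 12 by limma and 6 by limma-voom. The simulation gave every gene the same degree of variation between libraries and had no outlying library, so these rates need not hold for the real data. Its changed genes were drawn above a stricter level limit than 0.1 FPKM, so the recovery rates do not cover low members such as COX7A1.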

Additional observations from a re-analysis of the deposited data

How the results depend on the processing

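Of 30 results for named genes, 7 kept their call under every one of the 24 alternatives run for them, 23 lost it under at least 1 and 0 reversed. Of 360 medians by complex under the alternatives, 349 moved by less than the spread between replicates. The counts of members that passed moved more. In A20-KO against A20-WT, the 5 that rose became 1 with only the 2 groups compared, 3 with no variance trend, 9 with a GC correction and 1 without A20-WT replicate 1 and A20-KO replicate 3, and the 5 that fell became 2 with no filter on low values, 1 with only the 2 groups, 1 with no trend and 3 with the GC correction. In A20-OE against A20-KO, the rises by limma went from 0 to 1 with no trend, with limma-voom and with the GC correction, and to 3 without those 2 libraries, and the 7 falls became 2 with no filter, 13 when scaled to total reads, 1 with no trend, 11 with limma-voom, 12 with the GC correction and 3 without those libraries. In A20-OE against A20-WT, the 5 rises became 3 with no filter and 9 with limma-voom, and the 14 falls became 9 with no filter, 8 with no trend and 27 without those libraries. Leaving out each library in turn gave 1 to 5 rises and 1 to 5 falls in A20-KO against A20-WT, 0 to 1 rises and 0 to 12 falls in A20-OE against A20-KO, and 2 to 6 rises and 7 to 19 falls in A20-OE against A20-WT. The shares of all genes tested that passed under these settings are not given here, so these counts cannot be read as particular to the members. The causes were not tested. The GC corrections and the omission of those 2 libraries were chosen after seeing the data.

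With the replicate number as a block, 6 members rose and 7 fell in A20-KO against A20-WT, 0 rose and 16 fell in A20-OE against A20-KO, and 5 rose and 19 fell in A20-OE against A20-WT. With the block and the length correction, A20-OE against A20-KO gave 1 rise and 13 falls and A20-OE against A20-WT 25 falls. With the block and the GC correction there were 15 rises in A20-KO against A20-WT, 1 rise and 23 falls in A20-OE against A20-KO, and 10 rises and 26 falls in A20-OE against A20-WT. The shares of all genes that passed with the block are not given here either. The labels do not say whether equal numbers mark paired samples. Over all genes tested, the deviations of same-numbered libraries correlated at -0.027 to 0.121 over 9 pairs, with a mean of 0.0367 against -0.0183 for the other pairs. The summed FPKM of the members was highest in replicate 3 of each group, at 3494 in A20-WT, 3782 in A20-KO and 2926 in A20-OE. Whether the members pair by number was not tested.

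Of the medians by complex, in A20-KO against A20-WT complex I was -0.16, complex III -0.0764 and complex IV -0.0584 without A20-WT replicate 1 and A20-KO replicate 3. In the same comparison complex III was 0.0158 with the length correction, with or without the block, and complex V 0.12 with the GC correction, with or without the block. In A20-OE against A20-KO complex II was -0.0745 with the GC correction, likewise in both. Leaving out each library in turn, complex I ranged from -0.07 to 0.147 and complex IV from 0.177 to 0.3996 in A20-KO against A20-WT, complex III ranged from 0.02 to 0.31 in A20-KO against A20-WT, with the lowest value without A20-WT replicate 1, and from -0.19 to 0.0538 in A20-OE against A20-WT. With 3 libraries a group, a p that misses the threshold does not show that levels were equal, and members with under 100 reads in a library, such as COX7A1, are the least precise.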
